A study of Rattus norvegicus with 4 samples.

Results

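Blood of rats given mesenchymal stromal cells into the spinal canal after a spinal cord injury (library MSC-i.t) was compared with blood of the sham group (library Sham) by droplet single-cell RNA sequencing. A barcode counted as a cell if it had 500 or more UMIs (unique molecular identifiers, each marking 1 captured RNA molecule), 200 or more genes and no more than 20% mitochondrial UMIs. This left 10958 cells in MSC-i.t and 10232 in Sham, together 21190 of the 45986 cells in the 4 libraries of the series. The study used 40 rats in 4 groups of 10, and the series' design text describes a contusion of the cord by Allen's method for all of them before they were divided, so what the sham rats underwent is not clear from it. The MSC-i.t rats received 10000000 cells/kg in each of 2 doses, the first 72 hours and the second 7 days after injury; the series title calls the cells UC-MSCs. A further library, MSC-i.v, comes from rats given 30000000 cells/kg into a vein at the same times, and its values are set beside the others below; it is read against the same Sham library. The library of injured rats without cells, SCI, was left out, so injury and the cells given cannot be told apart here. The labels do not state strain, sex, age, the number of rats pooled in a library or when blood was drawn. The names of the deposited matrices carry a time of 24 h; the labels do not say from which event it counts, and it is not one of the dosing times, so whether blood was drawn before or after the cells were given is not known.

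Circulating monocytes come in a classical form, which carries inflammatory and phagocytic genes and enters injured tissue, and a nonclassical form, which patrols vessel walls and expresses the Fc receptor *Fcgr3a*. Classical cells can turn into nonclassical ones. Monocytes, B cells and dendritic cells display peptides to CD4 T cells on MHC class II, whose rat genes are *RT1-Da*, *RT1-Db1* (the paired chains of the D molecule), *RT1-Ba* and *RT1-Bb* (those of the B molecule); *Cd74* encodes the invariant chain that guards their groove, and *Ciita* the coactivator that switches the family on. Naive T cells leave the blood for lymph nodes and return, while NK cells kill through granzymes and perforin.

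Each side of the comparison is 1 library, so no difference was tested. Every interval is an exact 95% interval for counting error alone and says nothing about variation between rats. A gene's level is its CPM, its UMIs over all cells of a class per 1000000 UMIs of that class. A gene was examined with at least 100 UMIs over both libraries, and is called higher or lower where its CPM differed at least 1.5-fold and the interval of the ratio left out equality. The libraries held 80115646 UMIs in MSC-i.t and 71648050 in Sham, with medians of 5523.5 and 5031.5 UMIs per kept cell; 28 kept barcodes were found in both. After the 5% of barcodes with the highest doublet scores had been removed from each library, 10410 and 9720 cells remained, in 26 clusters. Free RNA, read from barcodes under 50 UMIs, was 19.0% hemoglobin in MSC-i.t and 25.2% in Sham, and its monocyte markers summed to 2089 and 4606 CPM. Classes carry the suffix "-like" because they were rebuilt from marker genes. In no cluster of the T-, B-, NK- and monocyte-like classes did markers of a different class outnumber the cluster's own among the leading genes. The naming itself used markers among the leading genes, so this balance is no check of the names.

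MSC-i.t held fewer monocyte-like cells, fewer precursor B-like cells and more T-like cells among its leukocytes than Sham. Of 8047 leukocytes in Sham 882 were monocyte-like, or 10.96% (10.3 to 11.7), and of 8939 in MSC-i.t 506 were, or 5.66% (5.19 to 6.16), a log2 ratio of -0.95 (-1.11 to -0.79). The share in MSC-i.v was 10.8% (10.3 to 11.3). The difference was larger for cluster 10, led by the classical genes *Fcnb*, *Fn1* and *Vcan*, which held 361 cells or 4.49% (4.04 to 4.96) in Sham and 137 cells or 1.53% (1.29 to 1.81) in MSC-i.t, a log2 ratio of -1.55 (-1.84 to -1.26). Cluster 6, led by *G0s2*, *Fcgr3a* and *Csf1r*, held 6.47% and 4.13%, a log2 ratio of -0.65 (-0.85 to -0.45). The nonclassical cluster 6 made up 59.1% of monocyte-like cells in Sham (55.7 to 62.3) and 72.9% in MSC-i.t (68.8 to 76.8), with 67.7% in MSC-i.v.

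T-like cells made up 59.2% of leukocytes in Sham (58.1 to 60.2) and 68.4% in MSC-i.t (67.4 to 69.3), a log2 ratio of 0.21, and 59.5% in MSC-i.v. Over leukocytes outside the monocyte-like class that log2 ratio was 0.13. Larger shares were found in cluster 0, led by the CD40 ligand gene *Cd40lg*, with 24% in Sham and 29.8% in MSC-i.t, and the CD8 cluster 2, led by *Cd8b* and *Cd8a*, with 16.5% and 19.6%. A further *Cd40lg* cluster, number 3, held 10.2% and 11.3%. Cluster 7, led by *Il2ra* and *Foxp3* (the regulatory T cell factor), held 6.49% in Sham and 5.88% in MSC-i.t, and the interval of its log2 ratio ran from -0.32 to 0.04. MSC-i.v divided its T-like cells otherwise, with 13.9% of leukocytes in cluster 0 and 21.8% in cluster 3.

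Among B-lineage cells, the precursor B-like cells and cluster 8 took smaller shares in MSC-i.t, and cluster 1 did not. Precursor B-like cells numbered 84 in Sham (1.04% of leukocytes, 0.833 to 1.29) and 31 in MSC-i.t (0.347%, 0.236 to 0.492). That is a log2 ratio of -1.59 (-2.23 to -0.98), and MSC-i.v had 57 (0.447%). *Akap12* and *Tifa* led their cluster, followed by the surrogate light chain gene *Igll1*, *Cd24* and the recombination genes *Rag1* and *Dntt*. With a minimum of 1000 UMIs per cell, only 45 cells, led by *Igll1* and *Dntt*, were named precursor B-like. A cluster of 127 cells led by *Akap12*, *Tifa* and *Cd24* was then named B-like. At resolution 2 such clusters held 44 and 160 cells, both named precursor B-like. How the Sham and MSC-i.t cells divided between them was not counted. Cluster 8, led by *Cd79b* and *Ms4a1*, held 6.87% of leukocytes in Sham and 3.75% in MSC-i.t (log2 ratio -0.87, -1.07 to -0.68), against 3.64% in MSC-i.v. Cluster 1, led by MHC class II genes and the IgM Fc receptor gene *Fcmr*, held 14.9% and 15.6%, within counting error of each other. B-like cells as a whole made up 21.7% and 19.3%. *Cd24*, which marks younger B cells, was at 129 CPM in Sham B-like cells and 71.5 CPM in MSC-i.t ones, with 60.3 CPM in MSC-i.v, the only called gene of the 19 B cell identity genes examined there. Within cluster 8 it was at 284, 186 and 195 CPM, and within cluster 1 at 40.5, 31.4 and 26.3 CPM.

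NK-like cells made up 3.42% of leukocytes in Sham (3.03 to 3.84) and 2.52% in MSC-i.t (2.20 to 2.86), a log2 ratio of -0.44, with 2.61% in MSC-i.v. Cluster 12, which carried T and NK receptor genes together (*Klra22*, *Gzmm*), held 2.36% and 2.95%. Rare classes are given as cell counts: basophil-like cells numbered 14 in Sham and 3 in MSC-i.t, neutrophil-like cells 10 and 1, cycling cells 50 and 35, plasma-like cells 15 and 24, and plasmacytoid dendritic-like cells 16 and 13. Of these, the basophil-like, neutrophil-like and cycling counts gave ratios whose intervals left out equality. The cycling interval ran from -1.33 to -0.014 on the log2 scale, but over all kept cells from -1.28 to 0.038. With Sham and MSC-i.t clustered without MSC-i.v, no cluster was named neutrophil- or basophil-like. Basophil genes such as *Mcpt8* then led the plasmacytoid dendritic-like cluster.

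**Figure D1:**
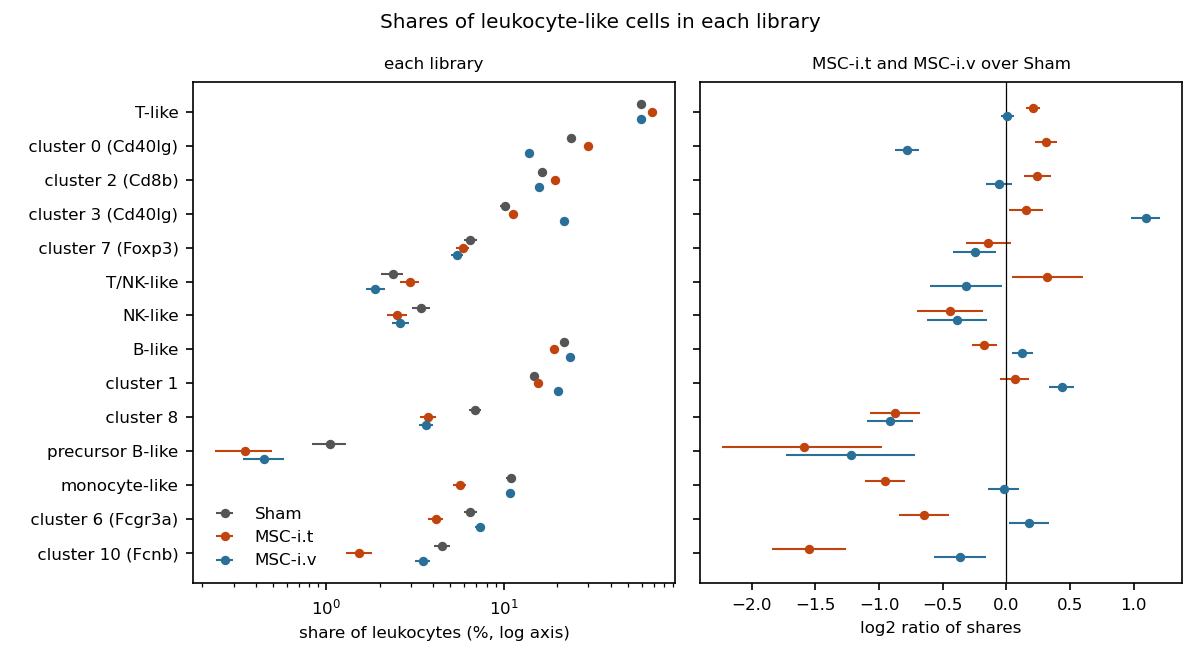
Share of leukocytes (left, %, log axis) in Sham, MSC-i.t and MSC-i.v, and log2 ratio of the share to Sham (right), for classes and their clusters. Points carry exact 95% intervals for counting error; of the classes plotted, which leave out the rare ones, cluster 10 and precursor B-like cells lie farthest below 0 in MSC-i.t, and cluster 3 lies farthest above 0 in MSC-i.v.

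Of the 4 large classes, monocyte-like cells held the highest share of called genes, with 132 of 5967 examined genes higher in MSC-i.t (2.21%) and 97 lower (1.63%). The MHC class II family was lower, the genes of lymphocytes were higher and hemoglobin transcripts were lower. Most genes of the classical and nonclassical lists were not called, but the share called was above that of all genes examined. The class held 5925561 UMIs in Sham and 3416537 in MSC-i.t.

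MHC class II stood at well under the Sham level in MSC-i.t monocyte-like cells: all 5 of the 11 list members with enough UMIs were called lower, with a median log2 ratio of -1.66 beside 0.03 for all genes examined. The 11 genes together summed to 2358 CPM in Sham but 982 CPM in MSC-i.t (2753 CPM in MSC-i.v). *RT1-Db1*, the D molecule's beta chain, was at 330 CPM (316 to 345) in the Sham library, 82.8 CPM (73.5 to 93.1) in the MSC-i.t library and 401 CPM in the MSC-i.v library. That is a log2 ratio of -1.995 (-2.18 to -1.81). Its partner *RT1-Da* was at 597 CPM in Sham against 188 CPM in MSC-i.t, with 747 CPM in MSC-i.v (log2 ratio of MSC-i.t -1.66). The B molecule's chains followed, *RT1-Ba* with 218, 73.8 and 274 CPM (-1.56) and *RT1-Bb* with 84.7, 24.6 and 96.3 CPM (-1.78). The invariant chain *Cd74* moved least, from 1116 CPM in Sham to 605 CPM in MSC-i.t (-0.88), with 1221 CPM in MSC-i.v. For each of the 5 genes MSC-i.t was the lowest of the 3 libraries and MSC-i.v the highest. Without removal of doublets the *RT1-Db1* log2 ratio was -1.20 and the list's median -1.17, and the gene was still called lower.

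The promoters of the 4 chain genes are shown because these genes moved together and because the family shares known control boxes. Each line gives bases 130 to 11 before the start site from RefSeq on build GRCr8, 5′ to 3′ on the gene's strand. They lie at chr20:4515285-4515404 (*RT1-Da*, plus strand), chr20:4560173-4560292 (*RT1-Db1*, minus strand), chr20:4576927-4577046 (*RT1-Ba*, plus strand) and chr20:4604129-4604248 (*RT1-Bb*, minus strand), each upstream of the gene's transcribed part. Capitals mark CTGATTGG, the core of the Y box, and AACNGATG, part of the X1 box, both searched on both strands.
RT1-Da: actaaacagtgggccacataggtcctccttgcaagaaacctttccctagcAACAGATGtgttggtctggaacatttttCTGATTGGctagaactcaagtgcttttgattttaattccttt
RT1-Db1: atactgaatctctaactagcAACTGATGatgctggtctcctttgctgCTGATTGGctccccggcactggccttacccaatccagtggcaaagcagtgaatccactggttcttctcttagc
RT1-Ba: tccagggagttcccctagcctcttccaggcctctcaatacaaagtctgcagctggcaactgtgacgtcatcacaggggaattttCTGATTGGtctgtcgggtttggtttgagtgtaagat
RT1-Bb: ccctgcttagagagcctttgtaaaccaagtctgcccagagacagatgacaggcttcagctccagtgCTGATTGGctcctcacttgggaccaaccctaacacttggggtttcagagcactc
The Y box core began 52, 83, 46 and 64 bases before the start in *RT1-Da*, *RT1-Db1*, *RT1-Ba* and *RT1-Bb*. In the windows shown the X1 letters were found in *RT1-Da* and *RT1-Db1* only, beginning 80 and 110 bases before the start. Over whole promoters of 300 bases, the Y box core was in 6 of the 9 list promoters matched and in 3.502% of all 33469, and the X1 letters in 3 of 9 and in 2.58%. The letters were chosen after these promoters had been seen, and a match is a description of sequence, not a measured binding site.

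The MHC class II difference was present in both monocyte-like clusters, with list medians of -1.48 in cluster 10 and -0.74 in cluster 6. In the classical cluster 10, 4372 genes were examined and 2.01% were called lower. There *RT1-Db1* was at 501 CPM in Sham but 124 CPM in MSC-i.t, while MSC-i.v had 699 CPM (log2 ratio of MSC-i.t -2.02, -2.23 to -1.80). *RT1-Da* was at 888, 319 and 1295 CPM in the same order, *RT1-Ba* at 324, 123 and 481 CPM, *RT1-Bb* at 130, 43.1 and 177 CPM, and *Cd74* at 1327, 710 and 1850 CPM. All 5 were called lower in MSC-i.t. *Ciita*, the family's coactivator, had 38 UMIs in Sham and 6 in MSC-i.t, with 32 in MSC-i.v, too few to be examined by the rule above; its log2 ratio was -1.51 with an interval of -3.04 to -0.25. In cluster 6 the levels were lower in every library, and 3 of the 4 genes examined were called lower, where 2.03% of 4179 genes were. They were *RT1-Da* with 141, 70.8 and 167 CPM, *RT1-Ba* with 52.3, 29.0 and 54.0 CPM and *Cd74* with 785, 510 and 555 CPM in Sham, MSC-i.t and MSC-i.v. *RT1-Db1* in cluster 6, with 64.0, 45.7 and 85.9 CPM (log2 ratio -0.49), was not called. With each cluster given the same weight in both libraries, set by its UMIs over both, the list's median was -1.42. This setting is called clusters weighted alike below. The clusters do not weigh the same as each other in it, and its calls used the interval of the main ratio.

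A small share of cells carried much of this signal. In cluster 10 the top 5% of cells held 55.1% of the MHC class II UMIs in Sham and 42.5% in MSC-i.t, with 48.0% in MSC-i.v, while the median cell had 1.16, 0.837 and 1.86 such UMIs per 10000. Cells with more than 100 per 10000 numbered 30 of 361 in Sham (8.31%, 5.68 to 11.7), 5 of 137 in MSC-i.t (3.65%, 1.20 to 8.31) and 61 of 444 in MSC-i.v (13.7%, 10.7 to 17.3). The cells of cluster 10 also differed in depth, with medians of 9084, 10957 and 6839 UMIs. Thinned to 2000 UMIs each, which left out 1 cell per library, the shares were 7.50% (27 of 360), 2.21% (3 of 136) and 14.0% (62 of 443). The log2 ratio of the MSC-i.t to the Sham share was -1.19 (-2.91 to 0.19) over all cells and -1.77 (-4.13 to -0.07) after thinning. The second interval left out equality and the first did not, and the MSC-i.t shares rest on 5 and 3 cells. The top 5 cells held 644 of 1809 *RT1-Db1* UMIs in Sham and 101 of 201 in MSC-i.t.

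Classical dendritic cells share many genes with monocytes. Their marker *Clec10a* was at 81.4 CPM in cluster 10 of Sham, 89.4 CPM of MSC-i.t and 155 CPM of MSC-i.v, and their receptor gene *Flt3* had 3, 5 and 5 UMIs. B cell markers summed to 122 CPM in Sham monocyte-like cells and 112 CPM in MSC-i.t ones, and with cells carrying UMIs of 2 or more markers of another class left out, the MHC class II median was -1.91 and *RT1-Bb* was no longer called. That setting kept 339 of 521 Sham and 251 of 369 MSC-i.t cells of cluster 6 but 48 of 361 and 13 of 137 of cluster 10. Most monocyte-like cells kept are thus from cluster 6, but this need not hold for their MHC class II UMIs. The kept cells of cluster 10 held 209 *RT1-Da*, 83 *RT1-Db1* and 353 *Cd74* UMIs in Sham and 5, 2 and 12 in MSC-i.t. The median of -1.91 mixes both clusters in unlike proportions in the 2 libraries. In free RNA *RT1-Db1* was at 510 CPM in Sham and 498 CPM in MSC-i.t, and the median was -1.76 after free RNA had been subtracted. B-like cells, the main carriers of MHC class II in blood, had no called gene of the family. There *Cd74* was at 10307 and 10732 CPM in Sham and MSC-i.t, *RT1-Da* at 6172 and 6269 CPM and *RT1-Db1* at 4522 and 4686 CPM, and 0 of the 9 list members examined were called, where 1.82% of 6495 genes were lower and 0.493% higher.

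**Figure D2:**
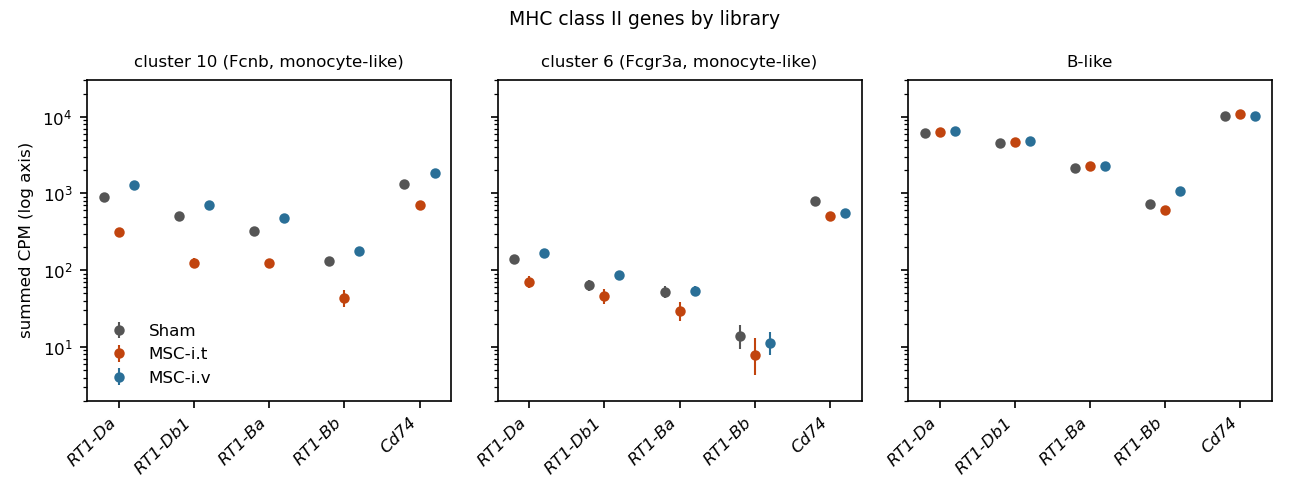
Summed CPM (log axis) of 5 MHC class II genes in Sham, MSC-i.t and MSC-i.v, for monocyte-like cluster 10, monocyte-like cluster 6 and B-like cells, with exact 95% Poisson intervals. MSC-i.t points lie lowest of the 3 in both monocyte-like clusters, while the B-like points nearly coincide for *RT1-Da*, *RT1-Db1*, *RT1-Ba* and *Cd74*.

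Most monocyte identity genes were not called, though a larger share of them was called than of all genes examined in the class. Of the classical list 2 of 9 genes examined were called lower: the alarmin *S100a8*, at 1058 CPM in the Sham library, 698 CPM in the MSC-i.t library and 364 CPM in the MSC-i.v library (log2 ratio of MSC-i.t -0.60), and the endotoxin co-receptor *Cd14*, at 99.1, 64.7 and 60.8 CPM (-0.61). *Fcnb*, a lectin of classical monocytes, was at 2665 and 1804 CPM, just inside the limit for a call and past it with the 5 cells richest in it left out of each library (log2 ratio -0.63), and lysozyme *Lyz2* at 33060 and 28078 CPM. With its 5 richest cells left out *S100a9* was past the limit too, at a log2 ratio of -1.03 against -0.45 with them. Within cluster 10 none of the 9 classical genes was called, and *S100a8* was at 1723 and 1462 CPM. With clusters 6 and 10 weighted alike in both libraries, neither *S100a8* (-0.24) nor *Cd14* (-0.29) was called. When Sham and MSC-i.t were clustered without MSC-i.v, *S100a8* was at -1.41 in monocyte-like cells. No cluster was named neutrophil-like in that setting, and *S100a8* and *S100a9* were among the leading genes of the *Fcnb* monocyte-like cluster. Where the 10 Sham and 1 MSC-i.t neutrophil-like cells then fell was not counted. Without cells carrying 2 or more markers of another class, which left few cells of cluster 10, *Cd14* was at -1.87. Of the nonclassical list 1 of 13 was called higher and 1 lower. *Fcgr3a* was at 315, 541 and 426 CPM in Sham, MSC-i.t and MSC-i.v (log2 ratio of MSC-i.t 0.78), but was not called with clusters weighted alike (0.36). Within cluster 6, where 1.72% of genes were higher, it was at 805, 1030 and 866 CPM and not called. The myeloid receptor gene *Cd300e* was at 38.0, 24.9 and 33.5 CPM, and -0.38 with clusters weighted alike, no longer called. *Csf1r*, the receptor that keeps monocytes alive, was at 859, 880 and 873 CPM.

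Transcription factors of monocytes split. *Cebpd*, a factor of acute inflammatory responses, was lower in MSC-i.t, at 92.6, 52.4 and 150 CPM in Sham, MSC-i.t and MSC-i.v (log2 ratio -0.82, -1.07 to -0.58). *Tcf7l2*, a Wnt pathway factor more abundant in nonclassical cells, was at 62.3, 96.3 and 85.2 CPM (0.63), but not called with clusters weighted alike (0.27). Named for the size of their ratios, the microtubule gene *Tppp3* was at 100.1 CPM in Sham but 37.5 CPM in MSC-i.t, while MSC-i.v had 57.7 CPM (-1.42), and *Gprc5d*, an orphan receptor gene, at 19.7, 8.49 and 14.5 CPM (-1.22). Among the higher genes named by the same rule were the protease inhibitor gene *Serpinb6b*, with 18.4, 48.6 and 30.2 CPM (1.40), *Nedd4*, a ubiquitin ligase gene, with 9.28, 21.9 and 9.23 CPM (1.24), and *Ms4a4c*, with 7.59, 19.3 and 10.0 CPM (1.35). None of these 3 was called with cells carrying markers of another class left out, at 0.29, 0.65 and -0.35. Of the 13 S100 and annexin genes 0 were called.

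*Retn*, which encodes the secreted protein resistin, was at 30.04 CPM (25.8 to 34.8) in the Sham library, 82.0 CPM (72.6 to 92.1) in the MSC-i.t library and 52.8 CPM in the MSC-i.v library. The gap lay in cluster 10, with 23.2, 134 and 52.6 CPM (log2 ratio of MSC-i.t 2.52, 2.15 to 2.91). There 30 of 361 Sham cells had a *Retn* UMI and 41 of 137 MSC-i.t cells did. In cluster 6 it was at 40.6 and 35.1 CPM. With cells carrying markers of another class left out, the log2 ratio of *Retn* over all monocyte-like cells was 0.02. Within cluster 10 the few cells kept by that setting held 5 *Retn* UMIs in Sham and 14 in MSC-i.t.

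Within cluster 10 genes induced by interferon gamma were higher in MSC-i.t, with 5 of 6 list members examined called, where 2.24% of the 4372 genes were. *Irf1*, the factor at the head of that response, was at 84.1 CPM in Sham against 142 CPM in MSC-i.t, with 97.7 CPM in MSC-i.v. The guanylate-binding protein gene *Gbp2* was at 66.1, 121.4 and 63.9 CPM, and 31.9% of Sham and 49.6% of MSC-i.t cells had a *Gbp2* UMI. The GTPase genes *Igtp*, with 19.1 and 33.3 CPM in Sham and MSC-i.t, and *Irgm*, with 25.7 and 40.7 CPM, went the same way. The chemokine gene *Cxcl10* was at 16.9 and 42.5 CPM, but 64 of its 69 UMIs in MSC-i.t came from 5 cells. Cluster 6 showed no such difference, with *Gbp2* at 234 and 227 CPM and *Irf1* at 166 and 154 CPM and 0 of 7 members called. MHC class II, which interferon gamma can induce, was lower in the same cluster 10. T cells express several of these genes too, and in cluster 10 T cell markers summed to 157 CPM in Sham and 298 CPM in MSC-i.t and NK cell markers to 101 and 232 CPM. In the 48 Sham and 13 MSC-i.t cells without 2 or more markers of another class *Gbp2* had 30 and 28 UMIs (70.0 and 256 CPM) and *Irf1* 36 and 26 UMIs (83.9 and 238 CPM), too few to be examined, and *Cxcl10* had 9 and 0.

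Lymphocyte genes were higher in the monocyte-like cells of MSC-i.t. Of the T cell receptor signalling list 10 of 14 genes examined were higher (median log2 ratio 0.90), of the Gimap GTPases, which sustain lymphocyte survival, 6 of 6 (1.07), of the naive T cell list 5 of 9 (0.63) and of the cytotoxic granule list 3 of 6 (0.59). *Cd3e*, a chain of the T cell receptor complex, was at 39.8 CPM in Sham but 84.6 CPM in MSC-i.t (39.1 CPM in MSC-i.v). *Gimap4* was at 38.7, 84.9 and 47.4 CPM. The T cell surface gene *Cd6* was at 7.93, 21.7 and 8.44 CPM, the costimulatory receptor gene *Cd27* at 19.2, 46.2 and 29.2 CPM and the perforin gene *Prf1* at 7.43, 24.3 and 11.1 CPM, but 33 of its 83 MSC-i.t UMIs came from 1 cell, and without the 5 richest cells of each library it was at 5.29 and 11.4 CPM in Sham and MSC-i.t. *Gzmm*, another of the cytotoxic genes called, had 75 of 95 MSC-i.t UMIs in 5 cells, and a UMI in 3.51% of Sham and 2.96% of MSC-i.t cells. T cell markers as a whole summed to 199 CPM in Sham and 373 CPM in MSC-i.t monocyte-like cells, beside 2861 and 2953 CPM in T-like cells and 1382 and 1853 CPM in free RNA. NK cell markers summed to 92.1 and 160 CPM. With cells carrying 2 or more markers of another class left out, which removed 56.1% of Sham and 47.8% of MSC-i.t cells, the medians were 0.02 for receptor signalling, -0.05 for cytotoxic, -0.09 for naive T cell and 0.62 for Gimap genes, and the genes called higher fell from 132 to 44.

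Hemoglobin and late erythroid genes were lower in MSC-i.t monocyte-like cells, 8 of 10 called with a median of -0.98. *Hbb*, the beta chain, was at 255 CPM in the Sham library, 101 CPM in the MSC-i.t library and 595 CPM in the MSC-i.v library, and hemoglobin made up 1.28%, 0.575% and 2.39% of the UMIs. This order is that of hemoglobin in free RNA, with 25.2%, 19.0% and 33.2%, whose part in these values was not tested. A few Sham cells held many of these UMIs, 80.6% of *Hba-a3* and 59.8% of the *Hba-a2* copy ENSRNOG00000047321 in 5 cells each. Without the 5 richest cells of each library the log2 ratios of these genes were -0.72 and -0.76, against -2.59 and -1.44 with them, and that of *Hbb* was -1.40. With cells carrying markers of another class left out *Hba-a3* (0.16), *Ahsp* and that *Hba-a2* copy were not called. Heat shock genes had 2 of 9 members called higher: *Hsph1*, with 34.8, 61.5 and 58.2 CPM, and *Dnaja1*, with 128, 218 and 225 CPM in Sham, MSC-i.t and MSC-i.v, both near the same level in MSC-i.t and MSC-i.v.

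**Figure D3:**
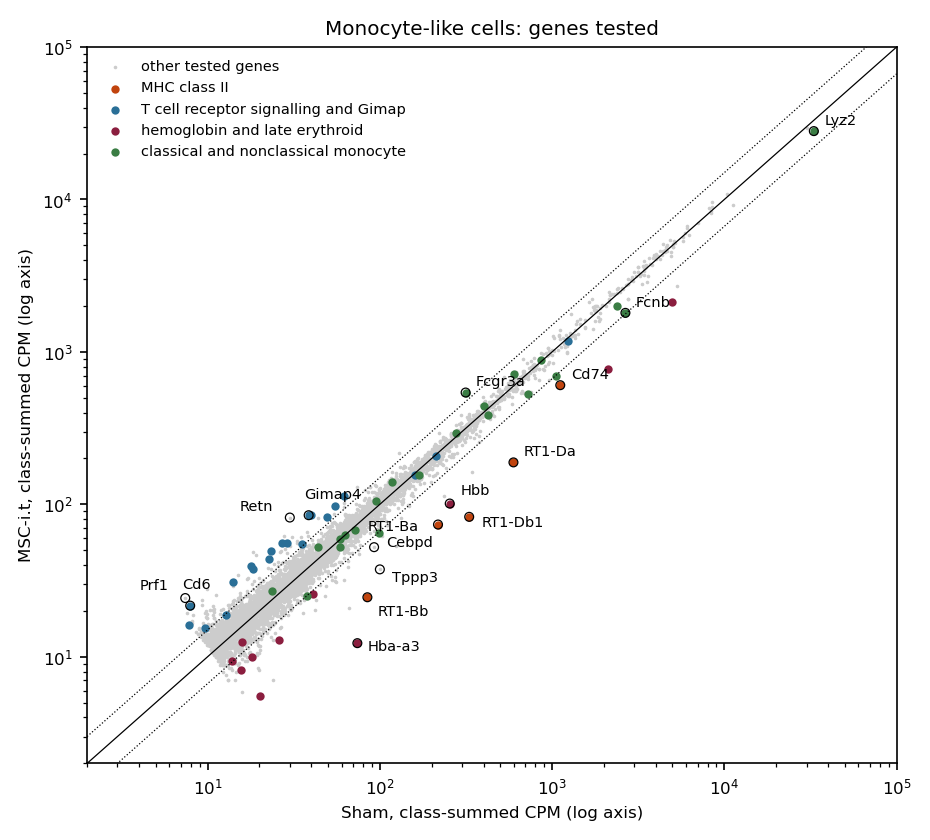
CPM in MSC-i.t against CPM in Sham (both log axes) for the 5967 genes examined in monocyte-like cells; the solid line is equality and the dotted lines 1.5-fold. The 5 MHC class II genes and most hemoglobin and late erythroid genes lie below the lower dotted line, and most T cell receptor signalling and Gimap genes above the upper one, while *Lyz2* and *Csf1r* lie near equality.

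T-like cells differed in few genes. Of 8511 examined 25 were higher in MSC-i.t (0.294%) and 137 lower (1.61%), with a median log2 ratio of -0.01 over all. Called genes were absent from 4 lists of T cell identity and function, with 0 of 17 receptor signalling, 0 of 16 naive T cell, 0 of 7 Gimap and 0 of 10 regulatory and checkpoint genes, while 1 of 9 cytotoxic granule genes was lower. *Cd4* was at 27.8 CPM in Sham and 25.8 CPM in MSC-i.t, *Cd8a* at 384 and 395 CPM and *Cd8b* at 141 and 141 CPM. *Foxp3* was at 9.12 CPM in Sham against 6.64 CPM in MSC-i.t, with 8.97 CPM in MSC-i.v, a log2 ratio of -0.46 (-0.73 to -0.19) that did not reach a call. Within cluster 7, where the gene is concentrated, it was at 80.0 and 72.6 CPM, with an interval of -0.41 to 0.13. *Fos*, an early response gene, was the 1 higher gene that met the rule for naming, at 8.04 CPM in Sham but 13.4 CPM in MSC-i.t (9.85 CPM in MSC-i.v), and was not called with cells carrying markers of another class left out.

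The lowest of the named T-like genes was *Dpt*, which encodes dermatopontin, a matrix protein best known from connective tissue. It was at 18.5 CPM (16.8 to 20.3) in the Sham library, 3.81 CPM (3.19 to 4.50) in the MSC-i.t library and 16.1 CPM in the MSC-i.v library, a log2 ratio of MSC-i.t to Sham of -2.28 (-2.57 to -2.002). A *Dpt* UMI was found in 378 of 4761 Sham cells (7.94%), 123 of 6111 MSC-i.t cells (2.01%) and 432 of 7576 MSC-i.v cells (5.70%). MSC-i.t was the lowest library in each of the T-like clusters 0, 2, 3 and 7. In cluster 0 it was at 23.8, 4.402 and 20.4 CPM in Sham, MSC-i.t and MSC-i.v, in cluster 2 at 13.7, 3.10 and 11.4 CPM, in cluster 3 at 18.7, 4.72 and 18.02 CPM and in cluster 7 at 14.9, 1.60 and 12.8 CPM. B-like cells had 1.07, 0.319 and 2.05 CPM. In free RNA *Dpt* was at 16.03 CPM in Sham and 2.52 CPM in MSC-i.t, near the T-like levels, and B-like cells from the same libraries were well below both. The log2 ratio ran from -2.41 to -2.28 over the alternative settings.

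Many of the lower genes in T-like cells are genes of monocytes. Of the classical monocyte list 5 of 7 genes examined were lower (median -1.43): *S100a8* with 17.9, 3.94 and 10.9 CPM in Sham, MSC-i.t and MSC-i.v, *S100a9* with 14.4, 3.83 and 8.76 CPM, *Lyz2* with 187, 67.7 and 148 CPM, *Fcnb* with 10.2, 3.78 and 6.11 CPM, and *Fn1*. The signalling adaptors *Tyrobp*, with 37.3 and 17.8 CPM in Sham and MSC-i.t, and *Fcer1g*, with 17.2 and 8.05 CPM, also serve myeloid receptors. Monocyte markers summed to 237 CPM in Sham T-like cells and 93.8 CPM in MSC-i.t ones, beside 4606 and 2089 CPM in free RNA. Of the 137 lower genes 51 (37.2%) were at least 10 times higher in Sham monocyte-like than in Sham T-like cells, against 2.58% of all genes examined. With cells carrying markers of another class left out the list's median was -0.62. MHC class II genes were lower in 3 of 6 (*RT1-Ba* with 12.2, 5.75 and 14.6 CPM, *RT1-Bb* with 2.80, 1.17 and 4.89 CPM, *RT1-Da* with 27.9, 16.7 and 30.6 CPM), though *RT1-Bb* and *RT1-Da* were not called with those cells left out. The part of RNA from other cells in these T-like values was not tested.

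Calcium-binding S100 genes were lower in T-like cells of MSC-i.t in 4 of 13 list members. *S100a4*, a gene of memory and effector T cells and of monocytes, was at 101 CPM (96.6 to 105) in Sham against 55.2 CPM (52.8 to 57.7) in MSC-i.t, with 117 CPM in MSC-i.v. *S100a6* was at 81.2, 44.7 and 75.1 CPM, *S100a11* at 8.96, 5.03 and 8.46 CPM and their scaffold partner *Ahnak* at 28.0, 17.9 and 28.1 CPM, the last not called with clusters weighted alike. Cluster 7 had the highest *S100a4* of these clusters, with 647, 451 and 831 CPM, and cluster 0 had 33.4, 19.1 and 40.8 CPM. The share of T-like cells with an *S100a4* UMI was 18.1% in Sham and 10.9% in MSC-i.t. *S100a4* and *S100a6* were also at 831 and 940 CPM in the free RNA of Sham and at 485 and 484 CPM in that of MSC-i.t.

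**Figure D4:**
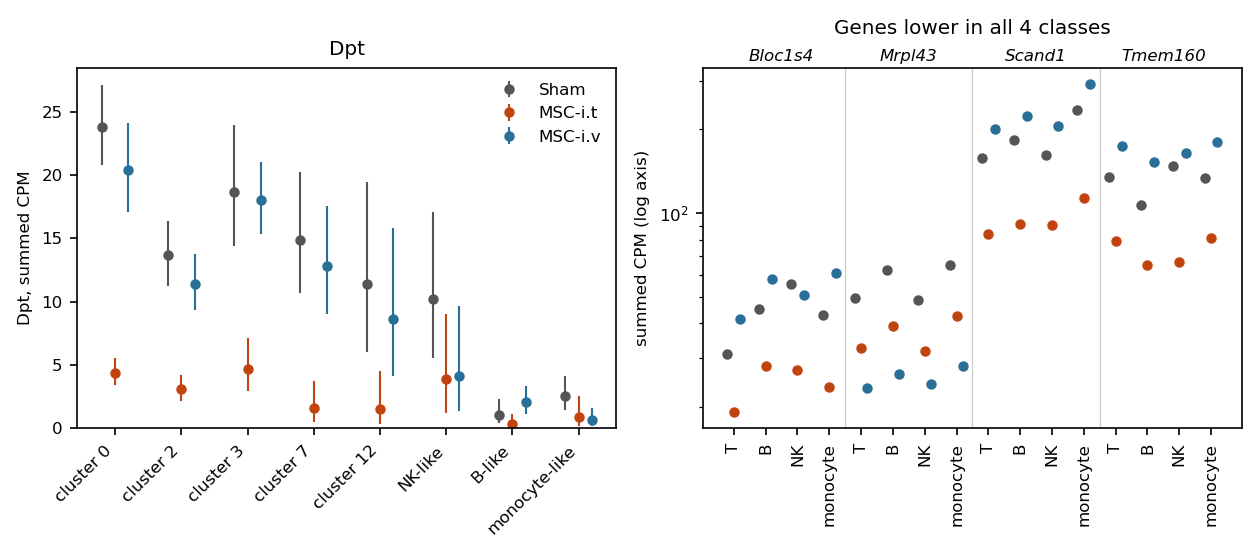
Left, *Dpt* CPM in T-like clusters 0, 2, 3 and 7, cluster 12 and the NK-, B- and monocyte-like classes, with exact 95% Poisson intervals; MSC-i.t lies below Sham and MSC-i.v in the T-like clusters. Right, CPM (log axis) of the 4 genes lower in all 4 classes, in each class; MSC-i.t lies lowest for *Bloc1s4*, *Scand1* and *Tmem160*, and MSC-i.v lowest for *Mrpl43*.

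In B-like cells 32 of the 6495 genes examined were higher in MSC-i.t (0.493%) and 118 lower (1.82%). Of the type I interferon list 4 of 30 genes were lower, with a median log2 ratio of -0.25 beside -0.01 over all genes. *Ifi27*, an interferon-induced mitochondrial protein gene, was at 505 CPM (487 to 524) in Sham but 260 CPM (248 to 273) in MSC-i.t (116 CPM in MSC-i.v). Both B-like clusters showed it, with 443, 236 and 99.9 CPM in cluster 1 and 615, 329 and 182 CPM in cluster 8. The ubiquitin-like protease gene *Usp18*, which restrains interferon signalling, was at 12.7, 5.74 and 8.34 CPM, the antiviral genes *Oas1b* at 18, 11.5 and 11.9 CPM and *Mx2* at 83.6, 53.7 and 60.4 CPM. With cells carrying markers of another class left out the median was near 0 and only *Ifi27* of the 4 was still called. *Oas1b* and *Mx2* were also not called with the B-like clusters weighted alike in both libraries.

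Other lower genes in B-like cells belong to other blood cells. Of the classical monocyte list 5 of 6 were lower (median -1.71; *S100a8* with 25.3, 4.78 and 12.98 CPM in Sham, MSC-i.t and MSC-i.v), of the platelet list 4 of 7 (*Nrgn* with 60.4, 29.0 and 43.6 CPM), and of the hemoglobin list 4 of 10 (*Hbb* with 682, 154 and 566 CPM). Of the 3827 *Hbb* UMIs of Sham B-like cells 1897 came from 1 cell, and without the 5 richest cells of each library *Hbb* was at 332 and 142 CPM in Sham and MSC-i.t (log2 ratio -1.22, against -2.15 with them). Beside these, monocyte markers summed to 893 CPM in Sham B-like cells and 658 CPM in MSC-i.t ones, and the platelet list to 518 and 322 CPM; their part in the result was not tested. The NK receptor and adaptor list had 3 of 5 lower, namely *Tyrobp* with 67.7, 29.8 and 60.1 CPM, *Cd226* with 11.4, 6.05 and 9.57 CPM and *Fcer1g* with 27.1, 16.7 and 27.7 CPM. With free RNA subtracted none of the 3 was called, nor were *S100a8*, *S100a9*, *Fn1* and *S100a6*. The 3 then had under 100 UMIs each, too few to be examined. Their log2 ratios were -1.36 for *Tyrobp*, -1.05 for *Cd226* and 3.15 for *Fcer1g*, the last from few Sham UMIs. Among genes outside the lists, *Glrx5*, which serves iron-sulfur cluster assembly, was at 32.2, 13.1 and 42.8 CPM (log2 ratio of MSC-i.t -1.30), and *Sys1*, a Golgi protein gene, at 34.9, 17.7 and 45.2 CPM. *Ly49si1*, of the Ly49 lectin-like receptor family, had the highest ratio of the genes named, at 16.6 CPM in the Sham library, 33.1 CPM in the MSC-i.t library and 22.3 CPM in the MSC-i.v library (1.00); Ly49 genes are near-identical copies, so its reads may be shared with relatives. *Fos* was at 12.1, 19.8 and 12.3 CPM, *Tmem214* at 8.55, 15.8 and 12.98 CPM, *Thumpd3* at 16.7, 26.6 and 19.4 CPM and *Ppfibp2* at 11.8, 18.6 and 9.02 CPM. *Cd8a*, a T cell gene, was at 18.2, 29.3 and 30.6 CPM. Of these 6 higher genes only *Ly49si1* was still called with cells carrying markers of another class left out.

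NK-like cells were the smallest class compared, 275 in Sham and 225 in MSC-i.t, and 27 of 2904 genes were higher (0.93%) and 49 lower (1.69%). Of the listed genes that NK cells work through, 0 of 11 cytotoxic granule genes and 0 of 12 NK receptors and adaptors were called. At the shares called in the class, lists of this size would hold few or no called genes. *Art2b*, an ADP-ribosyltransferase gene of rat T cells, was at 46.6 CPM in Sham against 99.8 CPM in MSC-i.t, with 60.7 CPM in MSC-i.v, and T cell markers summed to 700 CPM in Sham and 906 CPM in MSC-i.t NK-like cells. *Cxcr4*, a receptor that holds cells in marrow, was at 38.6, 65.8 and 71.5 CPM. *Slc25a17*, *Ahcy*, *App* and *Ftsj3* were higher by log2 ratios of 1.01, 0.96, 0.81 and 0.79. *Ly49i2*, an inhibitory receptor gene outside the receptor list, was called lower, at 132, 44.1 and 63.2 CPM. A *Ly49i2* UMI was found in 46 of 275 Sham cells and 21 of 225 MSC-i.t cells. *Tubb2a* was at 62.6, 13.2 and 24.1 CPM, but 72 of its 86 Sham UMIs came from 5 cells, and its log2 ratio was 0.39 with cells carrying markers of another class left out. The secreted phospholipase gene *Pla2g2a*, abundant in rat platelets, was at 129, 61.9 and 50.7 CPM. The nuclear protein gene *Fam76b* was at 66.2, 31.7 and 63.2 CPM. With cells carrying markers of another class left out, 50.2% in Sham and 56.4% in MSC-i.t, 1 of the 12 named NK-like genes was still called.

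Of 2747 genes examined in all 4 classes, 4 were lower in every class and 0 higher in every class. *Scand1*, a small zinc finger-related gene, fell from 157 to 84.0 CPM in T-like, 183 to 91.0 CPM in B-like, 162 to 90.5 CPM in NK-like and 235 to 114 CPM in monocyte-like cells, while MSC-i.v stood at 201, 224, 206 and 291 CPM. *Tmem160*, a mitochondrial protein gene, went from 135 to 79.4 CPM in T-like and from 148 to 66.5 CPM in NK-like cells, with 174 and 164 CPM in MSC-i.v. *Bloc1s4*, of the complex that builds lysosome-related organelles, went from 30.9 to 19.2 CPM in T-like and from 42.9 to 23.7 CPM in monocyte-like cells, with 41.4 and 60.7 CPM in MSC-i.v. *Mrpl43*, of the mitochondrial ribosome, went from 49.5 to 32.7 CPM in T-like cells, and MSC-i.v was lower still, at 23.4 CPM. A difference of like size in 4 unlike classes moves with the library; what set it cannot be told apart from the group with 1 library a side.

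**Figure D5:**
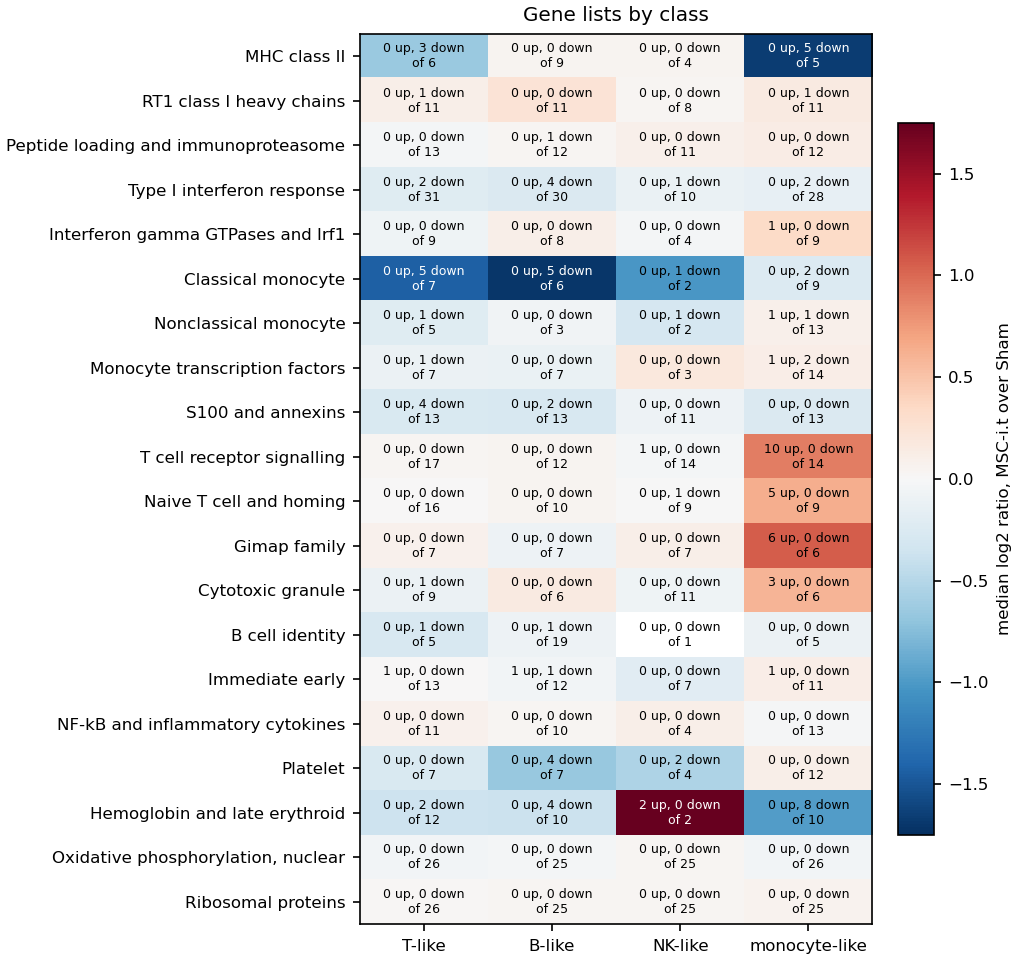
Median log2 ratio of MSC-i.t over Sham (colour) for 20 of the 35 gene lists in T-, B-, NK- and monocyte-like cells, with the number of members called higher (up) and lower (down) of those examined; white marks a list with fewer than 2. The deepest blue cells are MHC class II in monocyte-like cells and the classical monocyte list in T- and B-like cells; nuclear oxidative phosphorylation and ribosomal protein genes have 0 calls in each class.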

How the data were processed

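Blood cells were measured by droplet single-cell RNA sequencing in 4 libraries; Sham, MSC-i.t and MSC-i.v were clustered together and SCI was only counted. The deposited matrices hold raw UMI counts per gene and barcode for all barcodes. They were made with Cell Ranger 4 per the file headers, and mRatBN7.2 is the genome build per the submitters' processing notes, although gene names in the matrices look like those of an older rat assembly, so the build of the counts is not certain; the extraction protocol in the labels describes a bulk RNA preparation, and nothing was taken from it. The gene lists, markers and cells compared were chosen with earlier results of these data known.

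Counts were scaled to 10000 per cell, and 2000 variable genes, 30 principal components, 15 neighbours and Leiden resolution 1 gave 26 clusters (Python 3.11.15, scanpy 1.11.5, leidenalg 0.10.2, igraph 0.11.9). Scrublet called 0.0195%, 0% and 6.60% of barcodes doublets in Sham, MSC-i.t and MSC-i.v and had not worked in the first 2, so the top 5% by score was removed from each. A cluster took the class whose markers had the highest mean score, with at least 3 of them detected. Where its 10 leading genes held more markers of another class scoring above 0.5, it took that class. T and NK scores both above 0.5 made it T/NK-like. Leading genes named here were ranked against all other cells, and those in the marker balance against cells of other classes, both with 20 CPM added. Shares carry Clopper-Pearson intervals and CPM ratios exact conditional binomial ones (scipy 1.17.1), all for counting error only. The scripts were tested on simulated data.

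Genes were named by a rule: in each class the 6 highest and 6 lowest called ratios detected in at least 5% of cells, leaving out marker, hemoglobin, antigen receptor, ribosomal, mitochondrial, sex-linked and unnamed genes; up to 4 called members of each list with at least 3 called; *Cd4*, *Cd8a*, *Cd8b* and *Foxp3* in T-like cells; and both monocyte lists. Values within clusters and other genes (*Cd74*, *Ciita*, *Clec10a*, *Flt3*, *Cd24*, the heat shock genes, the interferon gamma genes of cluster 10 and genes lower in all classes) were chosen after their values were seen. Promoters come from RefSeq on GRCr8, a build that no source names for the counts, and were matched by symbol. Alternatives changed the UMI minimum, doublet removal, resolution, the libraries clustered, the CPM total, free RNA, cells with markers of another class, per-cell means and the minimum per gene; weighting clusters alike, shares outside the monocyte-like class list medians under other settings, leaving out the 5 cells richest in a gene, and cluster 10 without cells holding markers of another class were added after seeing the data. The values of 1 gene called in monocyte-like cells are not reported here.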

Additional observations from a re-analysis of the deposited data

Results flagged for a closer look

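Called differences of some genes ran in opposite directions in different classes of the same pair of libraries; the difference between classes was not tested. *Hbb* was lower in MSC-i.t in T-like (log2 ratio -0.96), B-like (-2.15) and monocyte-like cells (-1.33) and higher in NK-like cells (2.92). The NK-like value rests on a few cells: with the 5 cells richest in *Hbb* left out of each library its log2 ratio was -1.49 in NK-like cells, beside -1.33 in T-like, -1.22 in B-like and -1.40 in monocyte-like cells. In Sham B-like cells 1 cell held 1897 of 3827 *Hbb* UMIs. The *Hba-a2* copy ENSRNOG00000029886 was at -0.71 in B-like, -1.24 in monocyte-like and 0.96 in NK-like cells, and the copy ENSRNOG00000047321 at -0.83, -1.44 and 0.62. Without the 5 richest cells the first copy was at -0.45, -0.67 and -0.56 and the second at -0.53, -0.76 and -0.79, lower in all 3 classes. The unnamed genes *LOC100134871*, at 0.71 in the NK-like class and -1.24 in the monocyte-like class, and *LOC103694857*, at 0.92 and -0.97, showed the same split, and without their 5 richest cells were at -0.47 and -0.50 and at -0.33 and -0.52, none of them called. Hemoglobin made up 0.551% of NK-like UMIs in Sham and 1.14% in MSC-i.t, while in free RNA it was lower in MSC-i.t. *Satb1*, a chromatin organiser of T cells, was lower in NK-like cells (-0.60) and higher in monocyte-like cells (1.09), where T cell markers were also higher; without the 5 richest cells it was at -0.65 and 1.09, the latter from 71 UMIs.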

How the results depend on the processing

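No paired analysis was possible because each group has 1 library. With 1 library a side, variation between rats could not be measured. Among the classes and clusters whose genes were compared, MSC-i.t held the fewest cells in cluster 10 (137) and the NK-like class (225). Over leukocytes outside the monocyte-like class the T-like log2 share ratio was 0.13 in place of 0.21. In the other settings it stayed inside its main interval. The B-, NK-, monocyte- and precursor B-like ratios stayed inside theirs, the monocyte-like one between -0.97 and -0.90. Share ratios of single clusters and of other classes were not recomputed under these settings. A minimum of 30 UMIs per gene admitted more genes and gave 65 higher and 243 lower in T-like, 82 and 207 in B-like, 88 and 150 in NK-like and 255 and 175 in monocyte-like cells. Leaving out cells with 2 or more markers of another class gave 74 lower in B-like, 23 lower in NK-like and 44 higher in monocyte-like cells, from fewer cells. The same setting turned *Cd8a* (-0.24), *Fcnb* (0.57) and the type I interferon median (0.0009) in B-like cells and *Tubb2a* (0.39) in NK-like cells. In monocyte-like cells it turned *Ms4a4c* and *Gzmm* (both -0.35), *Satb1* and *Gimap9* (both -0.0295), *Cd247* (-0.23), *Hba-a3* (0.16) and the cytotoxic (-0.0458) and naive T cell (-0.0884) medians. Subtracting free RNA turned *Fcer1g* (3.15, from few Sham UMIs) and the NK receptor median (0.17) in B-like cells. Removing 10% as doublets turned *Gzmm* in monocyte-like cells (-0.78), and weighting clusters alike turned the monocyte transcription factor median (-0.0413). Leaving out the 5 cells with the most UMIs of a gene from each library turned no gene named by the rule. It ended the call of 1 of 16 in T-like, 4 of 30 in B-like, 6 of 12 in NK-like and 8 of 36 in monocyte-like cells. All of these but the *Hba-a2* copy ENSRNOG00000047321 in B-like cells (-0.53) had by then under 100 UMIs. Outside the rule it turned *Hbb*, both *Hba-a2* copies, *LOC100134871* and *LOC103694857* in NK-like cells, as given above. It also brought *S100a9* in monocyte-like cells to -1.03 from -0.45, past the limit for a call. Beyond the construction of each setting, the cause was not tested.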

Other observations

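Genes below were chosen after their values were seen. *Tgfb1*, a cytokine gene that restrains immune responses, was lower in MSC-i.t in B-like cells, with 60.0 CPM in Sham but 38.6 CPM in MSC-i.t (72.8 CPM in MSC-i.v), and in NK-like cells, with 80.8, 46.4 and 79.0 CPM. In T-like cells it was at 39.2, 28.2 and 44.5 CPM and in monocyte-like cells at 110, 73.2 and 141 CPM, neither of them called. MSC-i.t was thus the lowest of the 3 libraries in each class, and free RNA held 28.7 CPM in Sham and 22.7 CPM in MSC-i.t.

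*Ifi27* in T-like cells was at 770 CPM in the Sham library, 428 CPM in the MSC-i.t library and 269 CPM in the MSC-i.v library, a called difference. In NK-like cells it was at 475, 352 and 164 CPM and in monocyte-like cells at 755, 548 and 495 CPM, not called. Both libraries of rats given cells lay below Sham in all 4 classes, and the same Sham library stands in both comparisons.

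Chemokine *Ccl5* parted the monocyte-like clusters: in cluster 10 it was at 42.1 CPM in Sham against 110 CPM in MSC-i.t, with 22.8 CPM in MSC-i.v, with 128 of 179 MSC-i.t UMIs in 5 cells, and in cluster 6 at 57.1, 21.2 and 62.7 CPM.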
